A study of Homo sapiens with 4 samples.

Results

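The axon guidance ligands and receptors described here are the semaphorins of classes 3 to 7, the plexins, the neuropilins, the netrins, the UNC5 and ROBO receptors and the SLIT proteins. They were chosen by gene name alone, and 46 of the 31907 gene names counted in the series matched, 27 of them ligands and 19 receptors. The series held 4 RNA-seq libraries of HGC-27, an established human gastric cancer cell line. For 2 libraries the cells had received PBS, the vehicle, and for 2 they had received recombinant IL-17B (rIL-17B) at 200 ng/ml, in each case for 48 h. IL-17B is a cytokine that acts through the receptor IL-17RB, and the libraries were made to ask how the transcriptome of the cells responds to it. The labels name no genetic change in the cells, and nothing in the labels says whether the 2 libraries of a group came from separate cultures.

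Axon guidance proteins steer growing nerve fibres, and outside the nervous system many of them act on cell migration, vessel growth and tumour spread. Semaphorins bind plexins, class 3 semaphorins mostly through neuropilins as co-receptors, while netrins bind DCC and the UNC5 receptors and SLIT proteins bind ROBO receptors. The receptors act on the actin and microtubule skeleton, so that a contact with the ligand repels or attracts the cell edge.

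The libraries held between 12888029 and 17555879 counts, so that 3 counts, the smallest level taken as shown, equalled 0.171 to 0.233 CPM, the unit of count scaled to the library total (counts per 1e6). PCR copies are not independent molecules, so the floor takes in counting error alone. rIL-17B replicate 1 stood apart from the other 3 libraries. The chi-square of counts per degree of freedom was 139 between the 2 rIL-17B libraries and 3.66 between the 2 PBS libraries, and over the axon guidance genes alone it was 174 and 7.67. The 8 mesenchymal markers (VIM, FN1, COL1A1 and others) summed to 54804 and 53848 CPM with PBS, 1167 CPM in rIL-17B replicate 1 and 45842 CPM in replicate 2. The sum of the 7 epithelial markers went the other way, at 995 and 989 CPM with PBS, 2219 CPM in rIL-17B replicate 1 and 1245 CPM in replicate 2. Most of it was keratins 8, 18 and 7 (KRT8 stood at 601 and 611 CPM with PBS and at 1457 and 787 CPM with rIL-17B). Of the 6 epithelial markers tested, 4 had fold changes above 0 and 2 (KRT19 and CLDN4) below. KRT19 was at 2.96 and 3.34 CPM with PBS and at 0.0684 and 3.30 CPM with rIL-17B. CLDN4 was at 6.73 and 8.38 CPM with PBS and at 6.64 and 5.92 CPM with rIL-17B. CDH1 stayed under 1 CPM, and the gastric markers summed to at most 4.42 CPM. The labels' library protocol speaks of monocytes, but the 7 leukocyte markers summed to between 8.55 and 10.7 CPM and LYZ to at most 0.310 CPM. Fitted fold changes are therefore given with and without rIL-17B replicate 1. Where a pair of values is given for a group, replicate 1 comes before replicate 2, and a value with ± is a fitted log2 fold change of rIL-17B over PBS with its SE. The values "without replicate 1" come from the fit without rIL-17B replicate 1. In bulk RNA, fewer cells of a kind and less RNA per cell cannot be told apart.

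HGC-27 cells carried counts for all 46 genes in at least 1 library and for 39 in every library, and none of the genes passed the test between rIL-17B and PBS. In edgeR's quasi-likelihood test 0 of the 40 axon guidance genes tested had an adjusted p under 0.05, against 0.00% of the 16361 genes tested, and 0 of 40 had an unadjusted p under 0.05, against 1.38% of all genes. DESeq2 also gave 0 of 40 at an adjusted p under 0.05, against 0.00% of all genes, and 2 (SEMA3B and SEMA6D) at an unadjusted p under 0.05, against 2.79%. The values of the rIL-17B libraries nevertheless went mostly 1 way. Of the 40 genes, 35 had a fitted log2 fold change below 0, against 52.6% of all genes tested, and 5 above. Their median was -0.60, against -0.03 for all genes tested. The 23 ligands tested had a median of -0.55 and the 17 receptors -0.92. Relative to the PBS mean, the ligand and receptor medians were -1.27 and -2.56 in rIL-17B replicate 1. In replicate 2 they were nearly equal, at -0.19 and -0.16, so the gap between ligands and receptors was seen in replicate 1 only. The size of the median over the 40 genes also came mainly from rIL-17B replicate 1. There the median log2 ratio to the PBS mean came to -1.29 (0.08 over all genes), against -0.18 (0 over all genes) in replicate 2. The 6 genes not tested for low counts were NTN5, ROBO4, SEMA3D, SEMA3G, SEMA5B and UNC5A, none of which reached 1 CPM in any library. Exons of 16 of the 46 genes overlap those of another gene, among them SEMA3F, SEMA5A, SEMA6A, UNC5C, NRP1, NRP2 and PLXNA3, and their counts are less certain because strand use in the counting is not known.

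**Figure D1:**
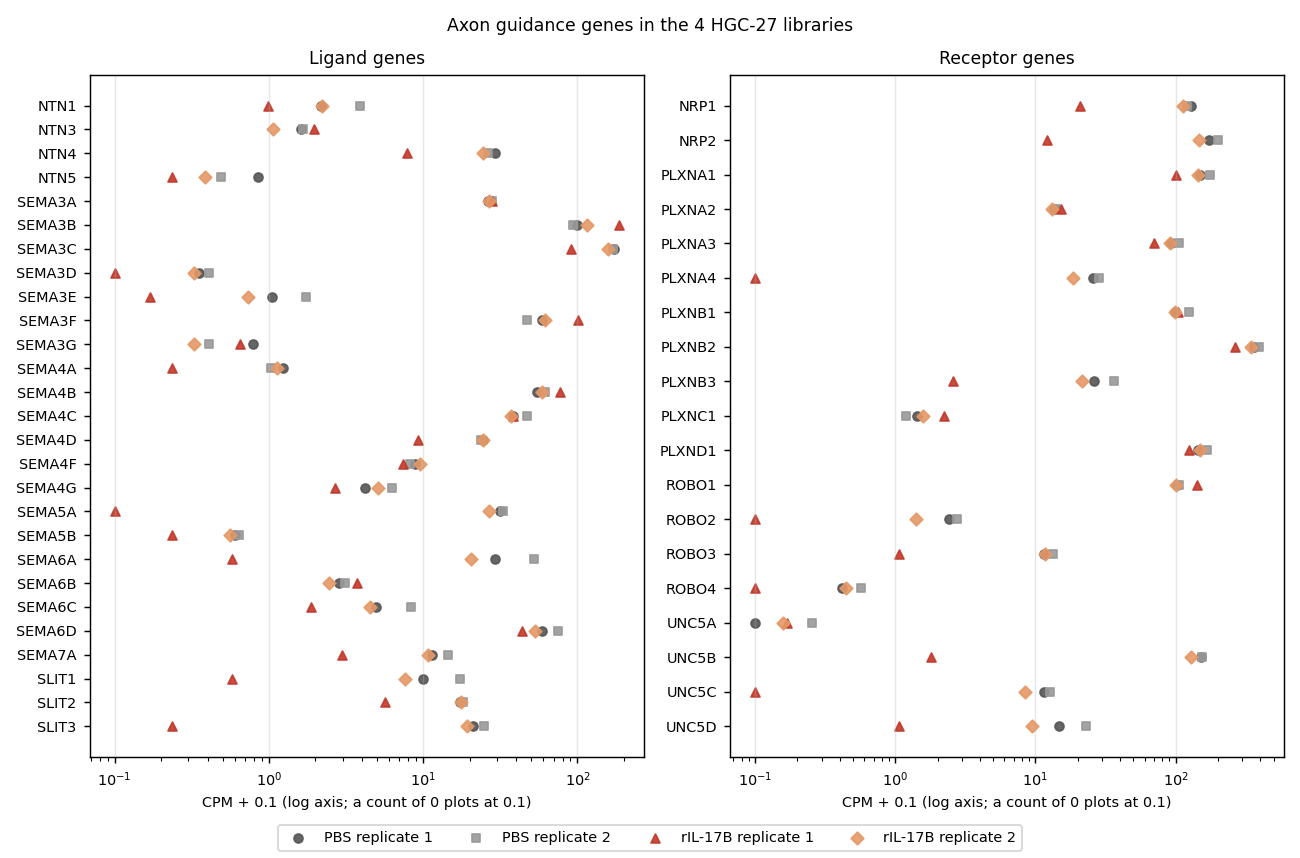
Level of each of the 46 axon guidance genes in the 4 libraries, as CPM plus 0.1 on a log axis, ligands on the left and receptors on the right, with 1 point per library. The rIL-17B replicate 1 points of UNC5B, SEMA5A, PLXNA4 and SLIT3 lie far left of the other 3, while those of SEMA3A and PLXNA2 lie beside them.

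Among the ligands, the secreted class 3 semaphorins held the highest level per kilobase of exon (kb), and their sum stood at 60.1 and 56.3 CPM per kb with PBS and at 70.4 and 61.0 CPM per kb with rIL-17B. SEMA3C, which signals through neuropilins and plexin D1 and is the ligand gene with the highest level per kb in PBS, was at 173 and 169.9 CPM in the PBS libraries and at 90.5 and 158 CPM in the rIL-17B libraries. Both rIL-17B values were below both PBS values, with a log2 fold change of -0.51 ± 0.36 (SE, adjusted p = 0.661 from edgeR, and -0.12 ± 0.09 without replicate 1). SEMA3B, whose product competes with VEGF for neuropilins and is lost in several cancers, was at 99.2 and 93.0 CPM in the PBS libraries and at 185 and 115.8 CPM in the rIL-17B libraries. SEMA3F, a ligand of neuropilin-2, was at 58.7 and 47.3 CPM in the PBS libraries and at 100.3 and 61.1 CPM in the rIL-17B libraries. Both genes lay above both PBS libraries in both rIL-17B libraries, with log2 fold changes of 0.56 ± 0.22 and 0.52 ± 0.26 (adjusted p = 0.661 for each from edgeR). Without rIL-17B replicate 1 they were 0.26 ± 0.09 (adjusted p = 0.0909) and 0.19 ± 0.10 (adjusted p = 0.405 from edgeR). SEMA3A, the repellent ligand of neuropilin-1 and A-type plexins, was at 26.3 and 27.6 CPM in the PBS libraries and at 27.9 and 26.5 CPM in the rIL-17B libraries. Its groups overlapped, with a log2 fold change of -0.06 ± 0.12 (adjusted p = 0.795 from edgeR, and -0.03 ± 0.13 without replicate 1), and its sign depends on the scaling. SEMA3E, the ligand that binds plexin D1 without a neuropilin, was at 0.943 and 1.63 CPM in the PBS libraries and at 0.0684 and 0.627 CPM in the rIL-17B libraries, the lower value being 1 count. Its log2 fold change of -1.85 ± 1.07 (adjusted p = 0.661 from edgeR, and -1.01 ± 0.69 without replicate 1) rests on levels near the floor, and SEMA3D and SEMA3G were lower still.

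SEMA3F (chr3:50155045-50189075) and SEMA3B (chr3:50267558-50277546, GENCODE 29 on GRCh38, both on the plus strand) lie 78483 bases apart. The annotation places 7 genes between them, of which 4 were tested (SLC38A3, GNAI2, U73166.1 and SEMA3B-AS1). In both rIL-17B libraries 0 of these 4 lay above both PBS libraries, which held for 31.5% of all genes tested. Replicate 1 of rIL-17B gave them a median log2 ratio to the PBS mean of -0.21 and replicate 2 a median of -0.55, while SEMA3B had 0.94 and 0.27 and SEMA3F 0.91 and 0.20. The 4 tested genes thus did not share the higher values. A count of 0 of 4 is too small to set apart from the share over all genes, so it is no result about the region.

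The class 4 semaphorins are transmembrane ligands, and their sum stayed between 18.0 and 20.7 CPM per kb in all 4 libraries. SEMA4B was at 54.6 and 61.7 CPM in the PBS libraries and at 76.9 and 58.8 CPM in the rIL-17B libraries, which overlapped (log2 fold change 0.15 ± 0.14, adjusted p = 0.676 from edgeR, and 0.02 ± 0.10 without replicate 1). SEMA4C, a ligand of plexin B2, was at 38.0 and 46.9 CPM in the PBS libraries and at 37.8 and 37.1 CPM in the rIL-17B libraries. Its rIL-17B values were below both PBS values by less than the distance between the PBS libraries (-0.25 ± 0.15, adjusted p = 0.661 from edgeR, and -0.19 ± 0.12 without replicate 1). SEMA4D, the ligand of plexin B1, was at 24.3 and 23.6 CPM in the PBS libraries and at 9.17 and 24.5 CPM in the rIL-17B libraries, so only rIL-17B replicate 1 was low among the 4 libraries (-0.55 ± 0.58, adjusted p = 0.685 from edgeR, and 0.03 ± 0.14 without replicate 1). SEMA4F was at 8.74 and 8.15 CPM in the PBS libraries and at 7.25 and 9.46 CPM in the rIL-17B libraries, on either side of the PBS values (-0.08 ± 0.28, adjusted p = 0.885 from edgeR, and 0.16 ± 0.21 without replicate 1). SEMA4G, between 2.60 and 6.21 CPM, and SEMA4A, between 0.137 and 1.13 CPM, were lowest in rIL-17B replicate 1.

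The class 5, 6 and 7 semaphorins are bound to the membrane, and SEMA5A and SEMA6A were nearly or fully missing from rIL-17B replicate 1. SEMA5A, a ligand of plexin B3 with thrombospondin repeats, was at 31.2 and 32.6 CPM in the PBS libraries, with 0 counts in rIL-17B replicate 1 and 26.7 CPM in replicate 2. Set against the floor of 3 counts, its level in replicate 1 was at least 155-fold lower than the PBS mean, and the 4 libraries together gave -1.26 ± 2.14 (adjusted p = 0.767 from edgeR, and -0.26 ± 0.13 without replicate 1). SEMA6A, a ligand of plexins A2 and A4, was at 29.1 and 52.0 CPM in the PBS libraries and at 0.479 and 20.3 CPM in the rIL-17B libraries. Both rIL-17B values were below both PBS values, and the PBS values themselves were 0.83 apart on the log2 scale (-1.97 ± 1.67, adjusted p = 0.662 from edgeR, and -0.99 ± 0.13 without replicate 1). SEMA6D, a ligand of plexin A1, was at 58.9 and 74.6 CPM in the PBS libraries and at 43.9 and 52.8 CPM in the rIL-17B libraries. It had the smallest p of the axon guidance genes and did not overlap between groups (-0.53 ± 0.21, unadjusted p = 0.072, adjusted p = 0.661 from edgeR, and -0.34 ± 0.10 without replicate 1). SEMA6C was at 4.84 and 8.22 CPM in the PBS libraries and at 1.78 and 4.39 CPM in the rIL-17B libraries (-1.12 ± 0.64, adjusted p = 0.661 from edgeR, and -0.56 ± 0.26 without replicate 1). SEMA7A, the semaphorin that is held by a lipid anchor and binds plexin C1, was at 11.3 and 14.4 CPM in the PBS libraries and at 2.87 and 10.7 CPM in the rIL-17B libraries (-0.94 ± 0.76, adjusted p = 0.661 from edgeR, and -0.25 ± 0.18 without replicate 1). For SEMA6C and SEMA7A replicate 2 lay just under the lower PBS library and replicate 1 far under it. SEMA6B stayed between 2.33 and 3.63 CPM and SEMA5B at or under 0.543 CPM.

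Netrins are laminin-related secreted ligands, and NTN4, a netrin of basement membranes, made up between 62.7% and 86.6% of their summed level per kb. NTN4 was at 29.2 and 26.4 CPM in the PBS libraries and at 7.80 and 24.5 CPM in the rIL-17B libraries. Both rIL-17B values were below both PBS values, replicate 1 by far and replicate 2 by less than the PBS libraries differed (-0.82 ± 0.66, adjusted p = 0.661 from edgeR, and -0.19 ± 0.13 without replicate 1). NTN1, the classical attractant that binds DCC, ranged from 0.889 to 3.80 CPM, NTN3 from 0.968 to 1.85 CPM and NTN5 from 0.137 to 0.754 CPM, so the netrin best known from axon growth was scarce in these cells.

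The SLIT genes encode the secreted ligands of the ROBO receptors, and the 3 of them, all between 9.81 and 24.8 CPM with PBS, parted in rIL-17B replicate 1. SLIT2 was at 17.3 and 18.0 CPM in the PBS libraries and at 5.54 and 17.4 CPM in the rIL-17B libraries, so it held 31.4% of the PBS mean in replicate 1 (-0.66 ± 0.66, adjusted p = 0.679 from edgeR, and -0.03 ± 0.16 without replicate 1). SLIT1 was at 9.81 and 17.3 CPM in the PBS libraries and at 0.479 and 7.52 CPM in the rIL-17B libraries, or 3.53% and 55.5% of the PBS mean (-1.77 ± 1.37, adjusted p = 0.661 from edgeR, and -0.83 ± 0.20 without replicate 1). SLIT3 was at 21.0 and 24.8 CPM in the PBS libraries, with 0.137 CPM (2 counts) in rIL-17B replicate 1 and 19.1 CPM in replicate 2, or 0.598% and 83.7% of the PBS mean (-1.25 ± 1.89, adjusted p = 0.748 from edgeR, and -0.26 ± 0.15 without replicate 1). Of the summed SLIT level per kb, SLIT2 gave 41.1% and 33.8% in the PBS libraries and 90.2% and 45.2% in the rIL-17B libraries, and in PBS replicate 2 SLIT1 was the highest with 34.6%. The exons of SLIT1 are shared with the read-through transcript ARHGAP19-SLIT1 and those of SLIT3 overlap other annotated genes, so that their counts are less certain than those of SLIT2.

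To show the DNA in front of genes that parted in this way, the 250 bases before the RefSeq start (GRCh38.p14) are given for the 3 SLIT genes and for PLXNA2, an A-type plexin gene whose level in rIL-17B replicate 1 was 111% of the PBS mean. Each is written 5′ to 3′ on the strand of the gene, with every CG dinucleotide, the site of DNA methylation in mammals, in capitals. The windows lie at chr10:97185960-97186209 (SLIT1, minus strand), chr4:20251655-20251904 (SLIT2, plus strand), chr5:169301140-169301389 (SLIT3, minus strand) and chr1:208244385-208244634 (PLXNA2, minus strand), and no annotated exon lies in them.
SLIT1: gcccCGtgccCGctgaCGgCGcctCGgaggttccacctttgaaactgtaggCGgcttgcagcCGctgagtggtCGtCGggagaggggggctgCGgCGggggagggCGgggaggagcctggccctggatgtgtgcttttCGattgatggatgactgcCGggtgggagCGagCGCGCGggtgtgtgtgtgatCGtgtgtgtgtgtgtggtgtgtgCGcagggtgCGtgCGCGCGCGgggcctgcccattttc
SLIT2: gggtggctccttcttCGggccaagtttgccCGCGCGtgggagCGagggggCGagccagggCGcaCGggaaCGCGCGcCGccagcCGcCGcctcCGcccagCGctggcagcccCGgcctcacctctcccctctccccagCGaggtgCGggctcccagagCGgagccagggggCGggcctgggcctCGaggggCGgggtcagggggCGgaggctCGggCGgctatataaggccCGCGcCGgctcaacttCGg
SLIT3: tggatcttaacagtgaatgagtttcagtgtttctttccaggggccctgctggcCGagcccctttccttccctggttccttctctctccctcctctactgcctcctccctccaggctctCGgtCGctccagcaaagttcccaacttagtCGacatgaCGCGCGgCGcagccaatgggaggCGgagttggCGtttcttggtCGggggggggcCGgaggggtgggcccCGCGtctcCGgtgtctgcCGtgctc
PLXNA2: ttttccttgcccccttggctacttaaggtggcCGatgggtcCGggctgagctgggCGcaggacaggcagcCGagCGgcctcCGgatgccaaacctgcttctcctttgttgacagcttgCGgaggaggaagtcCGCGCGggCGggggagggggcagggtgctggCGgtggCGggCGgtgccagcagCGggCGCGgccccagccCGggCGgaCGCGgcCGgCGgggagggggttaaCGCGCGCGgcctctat
They hold 25, 30, 16 and 27 CG dinucleotides, against a median of 11 over 35116 RefSeq promoter windows of the same length, of which 93.9% hold at least 1. Among the axon guidance genes with 1 RefSeq start and a PBS mean of at least 5 CPM, the 7 under 10% of that mean in rIL-17B replicate 1 had a median of 23 CG dinucleotides (11 to 33) and the 4 at 75% or more had a median of 28.5 (13 to 41). The ranges of these groups overlapped. TATAAA, searched on the strand of the gene in the last 60 bases, was in 2.78% of all windows and in none of these 11. Only this exact string was searched, so close variants, such as the tatataag in the SLIT2 window, were not counted. Methylation was not measured in this series.

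Plexins carry the semaphorin signal into the cell, and PLXNB2, the receptor of SEMA4C, had the highest level per kb of all 46 genes, 52.2 CPM per kb as the PBS mean. PLXNB2 was at 362 and 395 CPM in the PBS libraries and at 265 and 345 CPM in the rIL-17B libraries, both below both PBS values (-0.37 ± 0.22, adjusted p = 0.661 from edgeR, and -0.14 ± 0.08 without replicate 1). PLXNB1, the receptor of SEMA4D, was at 98.9 and 124 CPM in the PBS libraries and at 104 and 98.4 CPM in the rIL-17B libraries, which overlapped (-0.21 ± 0.15, adjusted p = 0.661 from edgeR, and -0.18 ± 0.09 without replicate 1). PLXNB3, the receptor of SEMA5A, was at 26.0 and 36.4 CPM in the PBS libraries and at 2.46 and 21.3 CPM in the rIL-17B libraries, both below both PBS values (-1.41 ± 1.12, adjusted p = 0.661 from edgeR, and -0.54 ± 0.13 without replicate 1). Within the B-type plexins, PLXNB3 thus stood at 7.89% of the PBS mean in rIL-17B replicate 1, PLXNB2 at 70.0% and PLXNB1 at 93.3%. The exons of PLXNB3 overlap SRPK3. PLXND1, the receptor of SEMA3E, was at 145 and 166 CPM in the PBS libraries and at 124 and 149.5 CPM in the rIL-17B libraries, and only replicate 1 lay outside the PBS range (-0.25 ± 0.19, adjusted p = 0.661 from edgeR, and -0.06 ± 0.09 without replicate 1). PLXNC1, the receptor of SEMA7A, had between 1.09 and 2.12 CPM and lay above the PBS values in either rIL-17B library, at levels of at most 31 counts.

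The A-type plexins, the partners of neuropilins, ranged from full retention to absence in rIL-17B replicate 1. PLXNA1 was at 149 and 175 CPM in the PBS libraries and at 100.1 and 145 CPM in the rIL-17B libraries (-0.46 ± 0.28, adjusted p = 0.661 from edgeR, and -0.16 ± 0.09 without replicate 1). PLXNA3 was at 92.3 and 106 CPM in the PBS libraries and at 70.1 and 90.5 CPM in the rIL-17B libraries (-0.36 ± 0.22, adjusted p = 0.661 from edgeR, and -0.13 ± 0.09 without replicate 1). In both genes the rIL-17B libraries lay below the PBS libraries, replicate 2 by less than the distance between the PBS values. PLXNA4 was at 25.7 and 28.2 CPM in the PBS libraries, with 0 counts in rIL-17B replicate 1 and 18.3 CPM in replicate 2. Its level in replicate 1 was at least 131-fold lower than the PBS mean against the floor of 3 counts, and the 4 libraries gave -1.56 ± 2.11 (adjusted p = 0.73 from edgeR, and -0.56 ± 0.14 without replicate 1). PLXNA2 was at 13.4 and 14.0 CPM in the PBS libraries and at 15.2 and 12.9 CPM in the rIL-17B libraries, on both sides of the PBS values (-0.03 ± 0.16, adjusted p = 0.91 from edgeR, and -0.08 ± 0.17 without replicate 1), and its sign depends on the scaling.

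The neuropilins, which also bind VEGF and hold class 3 semaphorins to A-type plexins, were abundant in 3 of the 4 libraries. NRP1 was at 129 and 119 CPM in the PBS libraries and at 20.7 and 113 CPM in the rIL-17B libraries (-0.92 ± 0.91, adjusted p = 0.677 from edgeR, and -0.15 ± 0.09 without replicate 1). NRP2 (chr2:205681990-205798133) was at 172 and 200.4 CPM in the PBS libraries and at 12.0 and 146 CPM in the rIL-17B libraries (-1.25 ± 1.26, adjusted p = 0.68 from edgeR, and -0.35 ± 0.09 without replicate 1). Both genes were below both PBS values in both rIL-17B libraries. NRP1 was the higher of the pair per kb only in rIL-17B replicate 1, where it made up 67.5% of their sum, whereas NRP2 made up between 51.8% and 58.2% in the other libraries.

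ROBO receptors bind SLIT proteins, and ROBO1 gave between 82.2% and 84.0% of the summed ROBO level per kb in 3 libraries and 99.0% in rIL-17B replicate 1. ROBO1 was at 102 and 106 CPM in the PBS libraries and at 142 and 99.9 CPM in the rIL-17B libraries, so replicate 1 was the highest and replicate 2 the lowest of the 4 libraries (0.14 ± 0.17, adjusted p = 0.711 from edgeR, and -0.06 ± 0.09 without replicate 1). ROBO3, known from axons that cross the midline, was at 11.3 and 13.3 CPM in the PBS libraries and at 0.958 and 11.6 CPM in the rIL-17B libraries, low in replicate 1 only (-0.98 ± 1.24, adjusted p = 0.72 from edgeR, and -0.08 ± 0.18 without replicate 1). ROBO2, the other main SLIT receptor, was at 2.33 and 2.64 CPM in the PBS libraries, with 0 counts in rIL-17B replicate 1 and 1.31 CPM in replicate 2. ROBO4, the endothelial member, stayed at or under 0.466 CPM.

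UNC5 receptors mediate repulsion by netrins, and UNC5B (chr10:71212570-71302864) gave between 70.6% and 91.9% of their summed level per kb. That sum was 24.6 and 25.8 CPM per kb with PBS, 0.354 CPM per kb in rIL-17B replicate 1 and 20.4 CPM per kb in replicate 2. UNC5B was at 152 and 154 CPM in the PBS libraries and at 1.71 and 128 CPM in the rIL-17B libraries, or 1.12% and 84.1% of the PBS mean (-1.24 ± 1.84, adjusted p = 0.746 from edgeR, and -0.25 ± 0.09 without replicate 1). UNC5C was at 11.4 and 12.5 CPM in the PBS libraries, with 0 counts in rIL-17B replicate 1 and 8.32 CPM in replicate 2 (-1.53 ± 2.07, adjusted p = 0.73 from edgeR, and -0.53 ± 0.20 without replicate 1). Set against the floor of 3 counts, UNC5C was at least 58.3-fold lower in replicate 1 than the PBS mean. UNC5D was at 14.5 and 22.8 CPM in the PBS libraries and at 0.958 and 9.40 CPM in the rIL-17B libraries (-1.86 ± 1.20, adjusted p = 0.661 from edgeR, and -0.98 ± 0.18 without replicate 1). UNC5B, UNC5C and UNC5D all lay below both PBS values in both rIL-17B libraries, and UNC5A had at most 0.155 CPM, which is under the floor of every library.

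The ligands summed to 107 and 112 CPM per kb with PBS and to 101 and 105 CPM per kb with rIL-17B. The receptors summed to 162 and 180 CPM per kb with PBS and to 93.0 and 151 CPM per kb with rIL-17B. SEMA3B alone made up 31.9% of the ligand sum per kb in rIL-17B replicate 1, where the median ligand had a log2 ratio of -1.27. Without the division by length the ligands summed to 710.2 and 765 CPM with PBS and to 608 and 688 CPM with rIL-17B. Known partners did not share 1 pattern in rIL-17B replicate 1. SEMA5A and its receptor PLXNB3 stood at 0% and 7.89% of their PBS means, while SEMA4D stood at 38.3% and its receptor PLXNB1 at 93.3%. SEMA3F stood at 189% and its co-receptor NRP2 at 6.44%, and SEMA6A stood at 1.18% while its receptors PLXNA2 and PLXNA4 stood at 111% and 0%. The SLIT receptor ROBO1 stood at 137% where its ligands stood between 0.598% and 31.4%. These percentages describe 1 library and carry no test.

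Over the 40 genes tested, 22 had both rIL-17B libraries below both PBS libraries, which held for 27.5% of all genes tested, and 3 (SEMA3B, SEMA3F and PLXNC1) had both above, which held for 31.5%. With TMM scaling, which lowers rIL-17B replicate 1 by 0.13 on the log2 scale relative to the PBS mean, the counts were 25 and 3. In rIL-17B replicate 1, 21 of the 40 genes were at least 2-fold below the PBS mean after 0.5 CPM was added, against 18.6% of all genes, and 0 were 2-fold above, against 2.61%. In replicate 2 there were 0 below, against 0.575% of all genes, and 0 above, against 0.0611%. Of the 31 axon guidance genes with at least 100 counts in each of the other libraries, PLXNA4, SEMA5A, SLIT3 and UNC5C had at most 3 counts in rIL-17B replicate 1, against 3.21% of all such genes. Of the 33 axon guidance genes with a PBS mean of at least 5 CPM, 11 were under 10% of that mean in replicate 1 and 6 within 25% of it. In replicate 2, 26 were within 25%. The shares over all genes at these limits were not taken, so these counts do not set the axon guidance genes apart. Beside these genes, all 8 mesenchymal markers and all 6 endothelial markers tested had fold changes below 0, against 52.6% of all genes tested. The 7 endothelial markers summed to 38.5 and 43.4 CPM with PBS and to 2.53 and 36.7 CPM with rIL-17B, with TIE1 at 3 counts or fewer throughout. Their part in these values was not tested.

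Without rIL-17B replicate 1 the remaining rIL-17B library was compared with the same 2 PBS libraries, with 1 residual degree of freedom. The lone library was assumed to vary as they do, which could not be checked. The chi-square per degree of freedom was 139 between the 2 rIL-17B libraries and 3.66 between the PBS libraries. The SE of SEMA6A, 0.13, was far smaller than the 0.83 between its PBS libraries on the log2 scale. The calls of this fit are therefore descriptive. In this fit 7 of the 42 axon guidance genes tested were lower with an adjusted p under 0.05, against 2.30% of 17103 genes, and 0 were higher, against 0.643%. SEMA6A (-0.99 ± 0.13), UNC5D (-0.98 ± 0.18) and SLIT1 (-0.83 ± 0.20) had the largest differences in edgeR among the 7. PLXNA4 (-0.56 ± 0.14), PLXNB3 (-0.54 ± 0.13), NRP2 (-0.35 ± 0.09) and SEMA6D (-0.34 ± 0.10) followed in the same edgeR fit. They are 3 ligands and 4 receptors of the semaphorin, netrin and SLIT systems, and all 7 were lower in rIL-17B replicate 1 than in replicate 2. This adds little, since the median log2 ratio of the axon guidance genes to the PBS mean was -1.29 in replicate 1 and -0.18 in replicate 2. The share over all genes was not taken. The median over the 42 genes was -0.19.

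The PBS libraries themselves differed in these genes, with PBS replicate 2 above PBS replicate 1 in 7 of 7. The distance was 0.83 for SEMA6A, 0.79 for SLIT1, 0.63 for UNC5D, 0.48 for PLXNB3, 0.34 for SEMA6D, 0.22 for NRP2 and 0.13 for PLXNA4 on the log2 scale. Over all 40 genes PBS replicate 2 was the higher in 31 (77.5%), and over all genes tested in 54.6%. The neural and glial markers, 7 of the 8 being counted, summed to 398 and 615 CPM with PBS and to 59.7 and 297 CPM with rIL-17B. Of them, 6 of 6 tested had fold changes below 0, against 52.6% of all genes tested, and SOX10 was not among the counted names. Among them OLIG2 was at 39.9 and 67.4 CPM in the PBS libraries and at 0 and 29.3 CPM in the rIL-17B libraries. NES was the largest with PBS, at 220 and 345 CPM. The markers did not all move alike: TUBB3 was at 1.51 and 1.32 CPM with PBS and at 0.547 and 1.31 CPM with rIL-17B. GFAP, at 0.692 and 0.621 CPM with PBS, was also lower in PBS replicate 2. The part of the neural and glial markers in the 7 calls was not tested. Each of the 7 genes was below PBS replicate 1, the lower PBS library, in rIL-17B replicate 2. Their selection as lower than these same PBS libraries nearly fixes this, so it is no separate support.

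With rIL-17B replicate 1 alone against PBS, 30 of 42 axon guidance genes were lower with an adjusted p under 0.05 in edgeR, against 31.9% of 17223 genes, and 4 (ROBO1, SEMA3B, SEMA3F and SEMA4B) were higher, against 23.2%. This fit and the one without replicate 1 share their PBS libraries. Each sets 1 rIL-17B library against the spread of the PBS libraries, so the calls of this fit are descriptive too. SEMA4B and ROBO1 had differences of 0.27 ± 0.10 and 0.31 ± 0.09 with rIL-17B replicate 1, and of 0.02 ± 0.10 and -0.06 ± 0.09 with replicate 2.

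The pathway around these ligands and receptors was described with 64 companion genes. All 64 were tested, 0 had an adjusted p under 0.05 in edgeR in either direction, and 1 (1.56%) had an unadjusted p under 0.05, near the 1.38% of all genes. Their log2 fold changes were above 0 in 16 and below in 48 (52.6% of all genes were below 0). The medians were -0.81 for 18 other receptors and co-receptors and -0.15 for 28 cytoplasmic effectors, against -0.03 for all genes. Without rIL-17B replicate 1 these medians were -0.17 and -0.08, and 9 of the 64 companions, SRGAP3 among them, were lower with an adjusted p under 0.05 in edgeR and 0 higher, against 2.30% and 0.643% of all genes. SRGAP3, a GTPase-activating protein that binds ROBO receptors, was at 5.85 and 6.67 CPM in the PBS libraries and at 2.26 and 3.19 CPM in the rIL-17B libraries, and both rIL-17B values were below both PBS values (-1.25 ± 0.35, unadjusted p = 0.0267, adjusted p = 0.661 from edgeR, and -0.97 ± 0.28 with an adjusted p of 0.0251 without rIL-17B replicate 1). The next smallest p belonged to EVL, an actin regulator (-0.41 ± 0.15), FLRT3, a partner of UNC5 receptors (-0.44 ± 0.16), PTPRS, a phosphatase receptor (0.34 ± 0.15), and L1CAM, a co-receptor of neuropilin-1 (0.70 ± 0.31), each with an adjusted p of 0.661 from edgeR. Without rIL-17B replicate 1 the 4 genes had -0.28 ± 0.12, -0.35 ± 0.13, 0.19 ± 0.09 and 0.25 ± 0.09 in the same order, with adjusted p between 0.0992 and 0.28 from edgeR. L1CAM was at 148 and 144 CPM in the PBS libraries and at 331 and 174 CPM in the rIL-17B libraries, above both PBS libraries in both.

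Of the most abundant companions, CFL1 and TRIO had values in the fit of 4 libraries closer to 0 than ITGB1 and DPYSL3. CFL1, the actin-severing cofilin, was at 530.5 and 509 CPM in the PBS libraries and at 681 and 539 CPM in the rIL-17B libraries (0.15 ± 0.14, and 0.05 ± 0.08 without replicate 1). TRIO, a guanine nucleotide exchange factor, was at 279.7 and 339.5 CPM in the PBS libraries and at 296 and 265 CPM in the rIL-17B libraries (-0.21 ± 0.14, and -0.23 ± 0.09 without replicate 1). The rIL-17B values of CFL1 were above both PBS values, and those of TRIO overlapped with them. ITGB1, a receptor of SEMA7A, was at 1425 and 1341 CPM in the PBS libraries and at 583 and 1279 CPM in the rIL-17B libraries (-0.62 ± 0.48, and -0.12 ± 0.08 without replicate 1). DPYSL3, a microtubule-binding protein of the collapsin response family, was at 347 and 353 CPM in the PBS libraries and at 17.2 and 293 CPM in the rIL-17B libraries (-1.19 ± 1.39, and -0.26 ± 0.08 without replicate 1). The lowest value of ITGB1 and DPYSL3 was that of rIL-17B replicate 1.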

How the data were processed

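Libraries of HGC-27 total RNA were prepared by Smart-seq2, with oligo-dT priming and PCR. The authors deposited whole-number counts per gene name, not normalized, without genes at 0. Their processing notes name HISAT2 2.1.0, TopHat2, Bowtie2 2.2.3, HTSeq 0.6.0 and hg38, with no role for each; annotation and strand use are not given in the sources used here, so counts of the 16 axon guidance genes whose exons overlap another gene are uncertain.

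Between 22 and 25 date-like names per library (0.23% to 0.24% of counts) were dropped, and repeated names, 83 to 98 per library and always with an equal count, were kept once. CPM is the count over the library total. Groups and replicate numbers came from the labels. edgeR 4.0.16 in R 4.3.3 (TMM, filterByExpr, quasi-likelihood F test, Benjamini-Hochberg, threshold 0.05) was fitted on all genes and tested on simulated data. The simulated libraries all had the spread of the PBS libraries, which is far smaller than that of the rIL-17B libraries. The simulation therefore does not show what the test can detect in these data. SE is the log2 fold change over the square root of F. P-values measure only the spread between libraries, which may be technical, and an exact permutation test of 2 against 2 cannot go below 0.333. The PBS libraries differed by more than sampling noise and were kept as 2. Alternatives were DESeq2 1.42.0, other normalizations and filters, a replicate block and leaving out each library.

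Members and lists were chosen with earlier results of these data known. Full statistics were given for the 31 genes with a mean of at least 5 CPM and the 5 with the smallest p, and among companions for the 5 with the smallest p and the 5 with the highest mean. The median of 1 companion group and the values of 1 abundant companion are not reported here. Exon lengths and positions are from GENCODE 29, promoter windows from RefSeq (38 of 46 genes matched). The order of groups with TMM scaling, the 2-fold and low-count descriptions the CG counts and the companion values without rIL-17B replicate 1 were chosen after the data were seen.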

Additional observations from a re-analysis of the deposited data

How the results depend on the processing

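The count of 0 axon guidance genes past an adjusted p of 0.05 also held with DESeq2, upper-quartile normalization, library totals, no filter and at least 10 counts in every library, and with either PBS library left out. With the replicate block it was 0 of 40 as well. Labels do not say whether same-numbered libraries were handled together. Their deviations correlated at 0.0815 across genes. The deviations of the rIL-17B libraries mostly reflect how far replicate 1 stood apart, so this value cannot show whether handling was shared. At an unadjusted p under 0.05 the count was 2 of 40 with DESeq2 (2.79% of all genes), 2 of 46 without the filter (2.75%) and 2 of 40 with the replicate block (1.06%). Leaving out each library in turn gave between 0 and 34 genes, namely 7 of 42 without rIL-17B replicate 1 (2.95% of all genes) and 34 of 42 without rIL-17B replicate 2 (55.1%), with 1 residual degree of freedom and the lone library assumed to vary like the PBS libraries. The median log2 fold change lay between -1.66 (without rIL-17B replicate 2, also with genes at 0 counts set at their bound) and -0.19 (without rIL-17B replicate 1), and was -0.83 with the replicate block.

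With library totals in place of TMM the sign turned for PLXNA2 (0.04) and SEMA3A (0.01), and for the other 31 of 33 genes the direction and call stayed. Over the fits that leave out 1 library, PLXNA2 ran from -0.08 to 0.02, ROBO1 from -0.06 to 0.31, SEMA4D from -1.52 to 0.03 and SEMA4F from -0.36 to 0.16. Without rIL-17B replicate 1, 23 of 33 genes kept direction and call, and without rIL-17B replicate 2, 2 of 33. The causes were not tested beyond the library left out. UNC5A stayed under the floor of 3 counts in every library, so a difference was not detectable at this depth.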
